A study of Homo sapiens with 15 samples.

Results

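hsa-miR-150-5p, hsa-miR-155-5p, hsa-miR-142-5p and hsa-miR-142-3p are miRNAs known from leukocytes, and they were followed here in small RNA of DiFi, an established cell line from a human colorectal cancer. They were chosen by name, as 4 of the 1619 entries of a table of reads per mature miRNA, and all 4 had reads. The study tried culture conditions for collecting the carriers in which the cells release small RNA, and its title speaks of supermeres, small particles that cells secrete. All 14 libraries analysed are labelled DiFi, and the labels give no other genotype or agent. They comprise 2 filtered HDM samples, 2 unfiltered HDM samples, 1 library of HDM media, 1 of regular media, 2 cell pellets and 6 libraries of plate cells. The filtered, unfiltered and pellet samples have 1 library each for HF7 and HF6, and the plate cells have plates 1, 2 and 3 for HF7 and for HF6. The labels spell out neither HDM nor HF, do not say what the filter was or whether the media had been on cells, and do not say whether libraries are separate cultures. P-values therefore measure only the spread between these libraries, which may be technical. An HDM medium without cells was not analysed here, so no medium background was measured.

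miRNAs are short RNAs that guide Argonaute proteins to messages, which they recognise mainly through the seed, the bases near the 5′ end. miR-142 is made in nearly all blood cell lineages and both of its arms are loaded and used. miR-150-5p is abundant in mature lymphocytes, where it represses MYB. miR-155-5p is cut from the MIR155HG transcript, rises on activation of lymphocytes and macrophages, represses SOCS1 and INPP5D, and is also found in some carcinomas.

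The mature sequences are shown because the arms of miR-142 carry different seeds, and so would recognise different messages. RefSeq (GRCh38.p14) held 3 of the 4, which equal the deposited sequences, and capitals mark the seed, bases 2 to 8.
miR-155-5p: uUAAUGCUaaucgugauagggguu
miR-142-5p: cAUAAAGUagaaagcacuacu
miR-142-3p: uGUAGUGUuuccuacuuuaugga
No other entry of the table has the seed of any of the 4, and the nearest other entry differed from each by 5 or 7 mismatches. Each member has 1 location. miR-155-5p lies at chr21:25573983-25574006 on the plus strand, in an exon of the lincRNA gene MIR155HG. miR-142-5p at chr17:58331283-58331303 and miR-142-3p at chr17:58331245-58331267 lie on the minus strand in MIR142, within an exon of the antisense lncRNA gene AC004687.1 in GENCODE release 29, and in an intron of TSPOAP1-AS1 on the opposite strand. miR-150-5p lies at chr19:49500832-49500853 on the minus strand in MIR150, with no other annotated gene. The miR-142 hairpin is shown because its arms behaved differently, with the 5p arm and then the 3p arm in capitals.
MIR142 hairpin: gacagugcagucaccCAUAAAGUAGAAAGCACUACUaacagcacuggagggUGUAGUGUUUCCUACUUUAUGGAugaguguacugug

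Library totals ran from 205747 counts in HF7 unfiltered HDM to 4896931 in regular media, and the HF7 cell pellet held 313398. Levels are given as CPM, the usual scaling of a count to its library total, with an exact Clopper-Pearson interval that covers counting error only. The 9 epithelial markers checked, such as members of the miR-200 family, were together present in every library, at 246804 to 260064 CPM in HDM, 254112 in HDM media and 260457 in regular media, against 288336 to 324303 CPM in the cell libraries. DiFi is an epithelial line, and these markers match that label. By mean CPM over the libraries miR-142-3p ranked 67th, miR-142-5p 81st, miR-155-5p 167th and miR-150-5p 261st.

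miR-150-5p was scarce in every cell library and present in every medium or HDM library. It had 47.3 and 75.4 CPM in HF7 and HF6 filtered HDM, from 81 and 187 counts, and 72.9 and 56.7 CPM in HF7 and HF6 unfiltered HDM, from 15 and 128 counts. HDM media held 93.5 CPM and regular media 35.3 CPM, from 450 and 173 counts. The HF7 cell pellet had 0 counts, with an exact upper bound of 11.8 CPM and 9.57 CPM as the limit at 3 counts, and the HF6 cell pellet had 4 counts or 1.04 CPM. HF7 plates 1, 2 and 3 had 1.13, 4.46 and 0.786 CPM, and HF6 plates 1, 2 and 3 had 1.86, 4.30 and 1.60 CPM. The lowest library outside the cells, regular media, thus lay above the highest cell library, HF7 plate 2, and the counting intervals of these libraries, 30.3 to 41.0 and 2.50 to 7.35 CPM, did not meet. The other arm, miR-150-3p, was rare, with 36 counts in all. It had 2 and 4 counts in HF7 and HF6 filtered HDM, 1 and 8 in HF7 and HF6 unfiltered HDM, 18 in HDM media and 2 in regular media, against 1 count in HF7 plate 2 and 0 in the other cell libraries.

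miR-155-5p followed the same split with less contrast. It had 245 and 234 CPM in HF7 and HF6 filtered HDM and 311 and 221 CPM in HF7 and HF6 unfiltered HDM. HDM media held 225 CPM and regular media 198 CPM. The cell pellets had 51.1 CPM for HF7, from 16 counts, and 21.2 CPM for HF6. Plate cells fell into separate ranges by plate number. HF7 plates 2 and 3 had 103 and 89.3 CPM and HF6 plates 2 and 3 had 91.8 and 86.6 CPM, while plate 1 had 30.4 CPM for HF7 and 21.7 CPM for HF6. Plate 1 was therefore in the range of the pellets, and plates 2 and 3 lay between the pellets and the HDM and media libraries. The other arm, miR-155-3p, had at most 3 counts in any library.

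miR-142-5p was lowest in filtered HDM. It had 444 and 379 CPM in HF7 and HF6 filtered HDM, against 977 and 908 CPM in HF7 and HF6 unfiltered HDM. HDM media held 1172 CPM and regular media 809 CPM. The HF7 and HF6 cell pellets had 1544 and 1336 CPM. HF7 plates 1, 2 and 3 had 1518, 725 and 1080.3 CPM, and HF6 plates 1, 2 and 3 had 1453, 1313 and 1397 CPM. Unfiltered HDM and the media libraries lay above filtered HDM and below both pellets, and overlapped the plate cells, whose lowest value was that of HF7 plate 2.

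miR-142-3p was also lowest in filtered HDM, with 1056 and 924 CPM for HF7 and HF6. HF7 and HF6 unfiltered HDM had 1492 and 1984 CPM. By library total HDM media had the highest level of the 14 libraries, 2839 CPM, and regular media had 1775 CPM, while with TMM scaling over the 14 libraries HF6 plate 3 was highest. The HF7 and HF6 cell pellets had 1251 and 1418 CPM. HF7 plates 1, 2 and 3 had 1211, 1728 and 2148 CPM, and HF6 plates 1, 2 and 3 had 1279.8, 2235 and 2615 CPM. By library total plates 2 and 3 lay above the pellets and plate 1, unlike for the 5p arm of the same hairpin. On the TMM scale used for the tests below, the HF6 pellet at 1971 CPM lay above HF7 plate 2 at 1661 CPM.

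**Figure D1:**
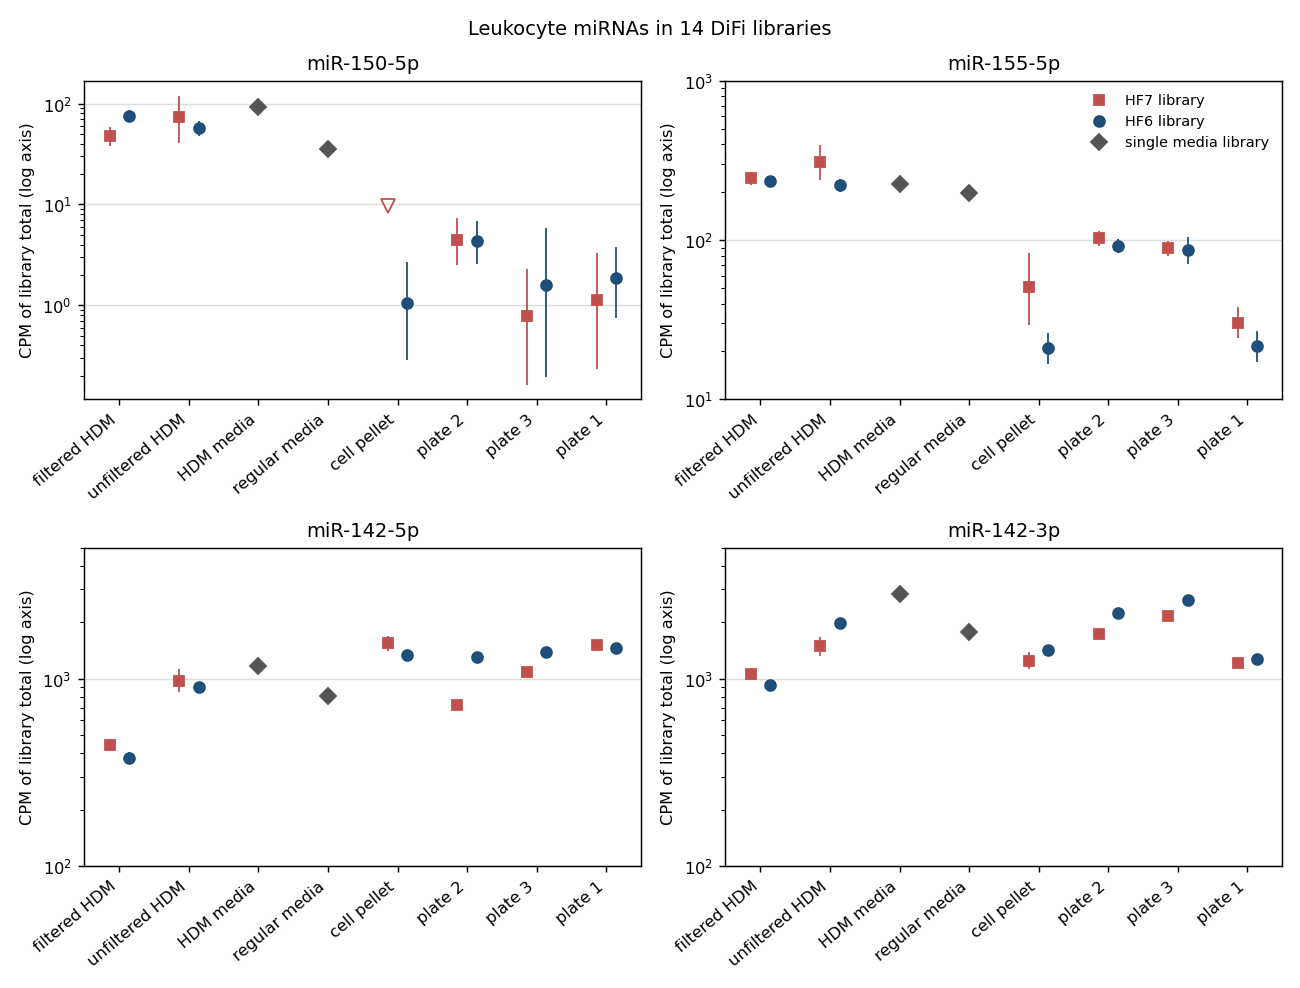
CPM of library total (log axis) of each member in each library, with exact intervals for counting error; squares are HF7 libraries, circles HF6 libraries and diamonds the single media libraries, and the open triangle marks 0 counts, drawn at 3 counts. miR-150-5p lies at 35.3 CPM or more in HDM and media and at 4.46 CPM or less in cells with reads, while the miR-142 arms stay within 1 order of magnitude.

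Setting HDM against cell pellets asks which miRNAs hold a larger or smaller share of released small RNA than of cellular small RNA, if HDM is what the cells released; the labels do not say so. Both HDM kinds held more miR-150-5p and miR-155-5p than the pellets, and filtered HDM held less miR-142-5p. In unfiltered HDM 2 of the 4 members were called higher and 0 lower in edgeR's quasi-likelihood test (Benjamini-Hochberg adjusted p under 0.05 over the miRNAs tested), beside 11.0% of the 535 tested, 5.42% higher and 5.61% lower. In filtered HDM 2 were called higher and 1 lower, beside 18.1% of all tested, 8.79% higher and 9.35% lower. In TMM-normalised CPM, which scales each library by its bulk of miRNAs, HDM and pellet libraries lay in separate ranges for 3 of 4 members in unfiltered and 4 of 4 in filtered HDM, beside 51.4% and 62.6% of all tested, so this alone says little. Group means are given on this scale from here on, and every fold is relative to the rest of the library. Fewer cells of a type and less RNA per cell cannot be told apart in such bulk samples.

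For miR-150-5p the mean was 56.2 ± 15.6 TMM-normalised CPM in filtered HDM and 53.5 ± 2.69 in unfiltered HDM, against 0.726 ± 1.03 in cell pellets (SD, n = 2 each). The edgeR log2 folds over pellets were 5.42 ± 0.88 (SE, adjusted p = 0.00235) for filtered and 5.33 ± 0.89 (adjusted p = 0.00409) for unfiltered HDM. The pellets hold 4 counts in all, and without the HF6 pellet, which leaves 0, the fitted values were 10.1 and 9.999 (adjusted p = 0.0236 and 0.0401), which depend on the prior count and are no bounds. As pooled CPM the ratio to pellets was 66.2 for filtered HDM, with a counting interval from 25.6 to 245, and 60.2 for unfiltered HDM, from 22.99 to 224. The HF6 pellet holds 3829754 of the 4143152 pooled pellet counts, so these are largely ratios to that library. The intervals leave out the spread between libraries. miR-155-5p averaged 221 ± 17.5 in filtered and 218 ± 25.2 in unfiltered HDM, against 43.7 ± 20.2 in pellets. Its edgeR log2 folds were 2.45 ± 0.67 (adjusted p = 0.0220) and 2.42 ± 0.67 (adjusted p = 0.0365). The unfiltered call was lost when any 1 of the 4 libraries compared was left out, with edgeR adjusted p from 0.0502 to 0.167, within a range from 2.22e-05 to 0.167 over all alternatives. The filtered call was lost without HF6 filtered HDM (adjusted p = 0.0682), without HF7 filtered HDM (adjusted p = 0.0861) or without the HF6 pellet (adjusted p = 0.139), and the alternatives began at 1.05e-05.

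Both miR-142 arms had log2 folds below 0 in these comparisons. miR-142-5p averaged 381 ± 61.0 TMM-normalised CPM in filtered HDM, against 1806 ± 72.0 in pellets, an edgeR log2 fold of -2.25 ± 0.39 (adjusted p = 0.00263). Without HF6 filtered HDM the adjusted p was 0.0574. In unfiltered HDM it averaged 783 ± 58.8, and the log2 fold of -1.20 ± 0.38 was just outside the threshold (edgeR adjusted p = 0.0545). It was called lower in 6 alternatives, DESeq2 among them (adjusted p = 0.0281), and not called in 8. Its adjusted p ran from 0.00280 to 0.270 over the alternatives. miR-142-3p averaged 915 ± 130.3 in filtered and 1469 ± 474 in unfiltered HDM, against 1696 ± 389 in pellets. Its log2 folds were -0.89 ± 0.37 (95% interval -1.68 to -0.10, edgeR adjusted p = 0.102) and -0.21 ± 0.37 (95% interval -0.99 to 0.58, adjusted p = 0.751). The filtered value was called lower by edgeR with plates grouped by plate number (adjusted p = 0.0190), without plate 1 (adjusted p = 0.0337) and with only the libraries compared (adjusted p = 0.0376), and over all alternatives its adjusted p ran from 0.0167 to 0.466. With library totals as the only scaling, which moved the median log2 fold of all miRNAs for unfiltered HDM over pellets to 0.66 from 0.05, the unfiltered value was 0.38.

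**Figure D2:**
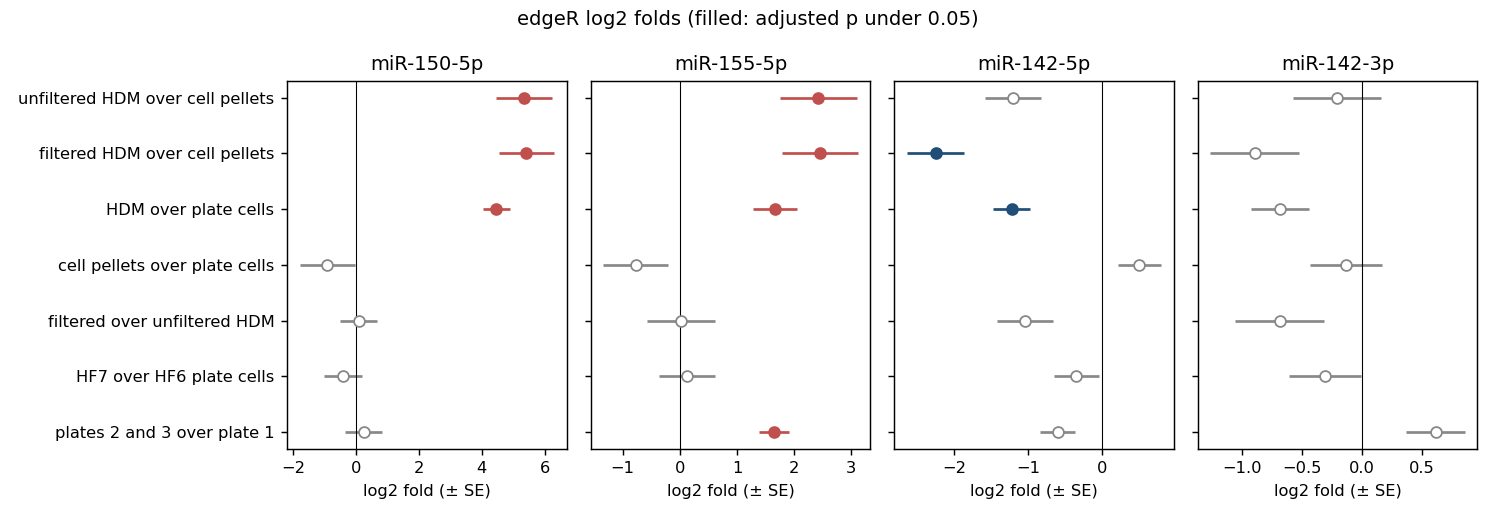
edgeR log2 folds with standard errors (horizontal bars) of each member in the 7 comparisons; filled points have an adjusted p under 0.05, and the x axis differs between panels. miR-150-5p and miR-155-5p are higher in HDM in each comparison with cells, from 1.66 to 5.42, while miR-142-5p is lower in filtered HDM than in pellets at -2.25.

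HDM, as the mean of its filtered and unfiltered coefficients, was next compared with the plate cells. The plate cells are other libraries than the pellets, but all 12 libraries share 1 fit. Plate cells thus also shaped the scaling and the spread used in the pellet tests. The HDM libraries are the same as above, so this is not a separate observation of HDM. Again 2 of 4 members were called higher and 1 lower, beside 9.35% of the 535 miRNAs, 3.55% higher and 5.79% lower. miR-150-5p averaged 54.8 ± 9.26 TMM-normalised CPM in HDM (n = 4), against 2.35 ± 1.504 on plates (n = 6), an edgeR log2 fold of 4.46 ± 0.43 (adjusted p = 1.91e-05). It was called under every alternative run for this comparison, with adjusted p up to 0.000383. miR-155-5p averaged 219.7 ± 17.8 in HDM, against 69.5 ± 32.0 on plates, a log2 fold of 1.66 ± 0.38 (adjusted p = 0.0148). The HDM and plate libraries did not overlap for either miRNA, which held for 16.3% of all tested. miR-142-5p averaged 582 ± 238 in HDM, against 1280.4 ± 372 on plates, a log2 fold of -1.22 ± 0.25 (adjusted p = 0.00790), with overlapping libraries. miR-142-3p averaged 1192 ± 427 in HDM, against 1874 ± 494 on plates, at -0.68 ± 0.24 (adjusted p = 0.0886), outside the threshold. With the replicate block, which pairs the plates by number and the HDM libraries by HF number, edgeR called it lower at -0.65 ± 0.17 (adjusted p = 0.00873), and called 153 miRNAs in all in place of 50. Over all alternatives its adjusted p ran from 0.00307 to 0.447. Leaving out HF6 filtered HDM, HF7 filtered HDM, HF6 unfiltered HDM or HF7 unfiltered HDM each ended the call of miR-155-5p, with edgeR adjusted p of 0.0593, 0.0706, 0.0644 and 0.0716. That of miR-142-5p ended without HF6 filtered, HF6 unfiltered or HF7 unfiltered HDM, at 0.0736, 0.0527 and 0.0557.

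Because plate 1 stood apart, HDM was also set against each kind of plate in a fit by plate number, an alternative chosen after seeing the data. Against plate 1 alone, 2 members were called higher and 1 lower, beside 28.8% of all miRNAs, 11.8% higher and 17.0% lower. The log2 folds were 4.95 ± 0.41 for miR-150-5p, 2.93 ± 0.28 for miR-155-5p and -1.59 ± 0.23 for miR-142-5p, with edgeR adjusted p of 6.52e-07, 2.74e-06 and 0.000144. Against plates 2 and 3 alone, 2 were called higher and 2 lower, beside 23.6% of all miRNAs, 11.8% each way. There miR-155-5p stood at 1.28 ± 0.20 (adjusted p = 0.000338), and miR-142-3p was lower at -0.86 ± 0.19 (adjusted p = 0.00448), while against plate 1 it stood at -0.25 ± 0.23 (adjusted p = 0.447).

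Between the kinds of cellular sample, cell pellets over plate cells, edgeR called 0 of the 4 members, beside 8.22% of 535, 4.30% higher and 3.93% lower. The replicate block called 163 miRNAs in place of 44, and 0 of the 4 members. DESeq2 and limma-voom also called 0 of the 4, and 0 of the 4 had an unadjusted edgeR p under 0.05. Over all miRNAs the alternatives called from 0 to 219, in place of 44. In a setting that called 0 of all miRNAs, 0 of the members says little. miR-142-5p averaged 1806 ± 72.0 TMM-normalised CPM in pellets (n = 2), against 1280.4 ± 372 on plates (n = 6), a log2 fold of 0.51 ± 0.29 (95% interval -0.13 to 1.14). It was the one member whose pellet and plate libraries did not overlap on this scale, as did 31.4% of all tested. miR-155-5p stood at -0.77 ± 0.56, with an interval from -1.99 to 0.44, miR-142-3p at -0.13 ± 0.30, from -0.78 to 0.51, and miR-150-5p at -0.92 ± 0.88, from -2.80 to 0.97. Against plates 2 and 3 alone, where 40.9% of miRNAs were called, 20.7% higher and 20.2% lower, miR-155-5p was lower in pellets at -1.28 ± 0.30 (edgeR adjusted p = 0.00356) and miR-142-5p higher at 0.73 ± 0.24 (adjusted p = 0.0238). Against plate 1 alone, where 5.79% were called, 2.24% higher and 3.55% lower, 0 members were called and miR-155-5p stood at 0.37 ± 0.33.

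Plates 2 and 3 were compared with plate 1, a split chosen with earlier results of these data known. The labels number the plates without saying what the number stands for, and give no reason to pool 2 with 3. The p-values of this comparison are therefore no independent support for the split. 1 of 4 members was called, miR-155-5p, beside 26.2% of 535, 11.4% higher and 14.8% lower. The libraries did not overlap for miR-155-5p and both miR-142 arms, as for 49.9% of all tested. miR-155-5p averaged 89.8 ± 6.36 TMM-normalised CPM on plates 2 and 3 (n = 4), against 28.8 ± 6.24 on plate 1 (n = 2), an edgeR log2 fold of 1.64 ± 0.26 (adjusted p = 0.000383). The arms of miR-142 stood on opposite sides of 0 without passing the threshold. miR-142-5p averaged 1098 ± 310.3 on plates 2 and 3, against 1646 ± 19.9 on plate 1, at -0.59 ± 0.24 (adjusted p = 0.0793). miR-142-3p averaged 2119.9 ± 403, against 1381 ± 79.96, at 0.61 ± 0.24 (adjusted p = 0.0790). Of the 2 arms, DESeq2 called the 3p arm, and limma-voom called both. miR-150-5p averaged 2.69 ± 1.78 on plates 2 and 3, against 1.66 ± 0.604 on plate 1, at 0.24 ± 0.58 (adjusted p = 0.805). Its levels on plate 3, at 1.18 ± 0.618, were no higher than on plate 1, while plate 2 had 4.20 ± 0.115 (n = 2 each).

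Filtered HDM was also set against unfiltered HDM. 0 of the 4 members were called, nor any of the 535 miRNAs (0.00%) in edgeR. Unadjusted p was under 0.05 for 10 miRNAs, and DESeq2 called 0 and limma-voom 1. miR-150-5p and miR-155-5p differed little, at log2 folds of 0.08 ± 0.59 (95% interval -1.18 to 1.35) and 0.02 ± 0.60 (-1.27 to 1.32). These intervals reach beyond 1 log2 unit in both directions. miR-142-5p stood at -1.04 ± 0.38 (unadjusted p = 0.0153, adjusted p = 0.999, edgeR), with 381 ± 61.0 TMM-normalised CPM in filtered and 783 ± 58.8 in unfiltered HDM (n = 2 each), lower for both HF numbers. A fit of the 4 HDM libraries alone called it lower at -1.11 (edgeR adjusted p = 0.00473), and the alternatives ran up to 1. miR-142-3p stood at -0.69 ± 0.37, with 915 ± 130.3 in filtered and 1469 ± 474 in unfiltered HDM. Filtered and unfiltered libraries did not overlap for either arm of miR-142, as for 39.3% of all tested.

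Between HF7 and HF6 plate cells no miRNA was called by edgeR (0.00%), DESeq2 or limma-voom, and 7 of 535 had an unadjusted edgeR p under 0.05. All 4 members overlapped between HF7 and HF6, while 4.67% of the miRNAs tested did not. Within the pairs of plates, miR-142-3p was lower in HF7 on all 3, at 1325, 1661 and 2038 TMM-normalised CPM on HF7 plates 1, 2 and 3, against 1438, 2142 and 2639 on HF6 plates 1, 2 and 3, and the paired edgeR fit gave -0.29 (adjusted p = 0.993). miR-142-5p stood at -0.35 ± 0.30, miR-142-3p at -0.31 ± 0.30, miR-155-5p at 0.13 ± 0.49 and miR-150-5p at -0.41 ± 0.61. The plate-number block described in the closing section changed none of these calls.

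The media libraries are single and allow no test. By library total HDM media had more of each member than regular media, but with TMM scaling over the 14 libraries miR-155-5p was lower in HDM media, at 191.7 against 202.7 CPM in regular media. By library total the ratio was 2.65 for miR-150-5p (counting interval 2.22 to 3.17), 1.60 for miR-142-3p (1.56 to 1.64), 1.45 for miR-142-5p (1.39 to 1.51) and 1.14 for miR-155-5p (1.04 to 1.24). These intervals cover counting error between 2 libraries, not the difference between media.

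The share of the 5p arm among all miR-142 reads does not depend on library scaling. It set pellets and plate 1 apart from all other libraries, so plates 2 and 3 fell with HDM and media. This is another split than that of miR-150-5p and miR-155-5p. It was 29.6% and 29.1% in HF7 and HF6 filtered HDM, 39.6% and 31.4% in HF7 and HF6 unfiltered HDM, 29.2% in HDM media and 31.3% in regular media. It was 55.3% and 48.5% in the HF7 and HF6 cell pellets. Plates 2 and 3 had 29.6% and 33.5% for HF7 and 37.0% and 34.8% for HF6, against 55.6% on HF7 plate 1 and 53.2% on HF6 plate 1. Pellets and plate 1 thus had about as many 5p as 3p reads, and the other libraries had more 3p reads. The widest exact interval was that of HF7 unfiltered HDM, from 35.3% to 43.97%, on 201 counts of the 5p and 307 of the 3p arm.

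The mean share was 32.4 ± 4.87% in HDM (n = 4), against 51.9 ± 4.77% in pellets (n = 2), and 33.7 ± 3.13% on plates 2 and 3 (n = 4), against 54.4 ± 1.74% on plate 1 (n = 2). In neither case did the libraries overlap. The exact permutation test gave p = 0.133 in each (two-sided), the smallest p the design allows, and 0.333 after Benjamini-Hochberg adjustment over the 5 comparisons of this share. HDM against all plates gave an exact p = 0.238, pellets against plates an exact p = 0.357 and HF7 against HF6 plates an exact p = 0.700. Filtered and unfiltered HDM of 1 HF number may come from 1 collection, so the 4 HDM libraries need not be independent.

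The arm ratio of other hairpins also moved, as seen over the 59 hairpins with at least 5 counts of both arms in each of the 12 replicated libraries. For plates 2 and 3 minus plate 1 the log2 ratio of 5p to 3p changed by -1.23 for miR-142, against a median of 0.27, and 2 of the 59, miR-142 included, had a value as low. In absolute size 10.2% of the 59 changed as much, and for 49.2% the libraries did not overlap. For HDM minus pellets the change was -1.18 for miR-142, against a median of -0.0020, with 8 as low, 32.2% as large in absolute size and 44.1% without overlap.

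**Figure D3:**
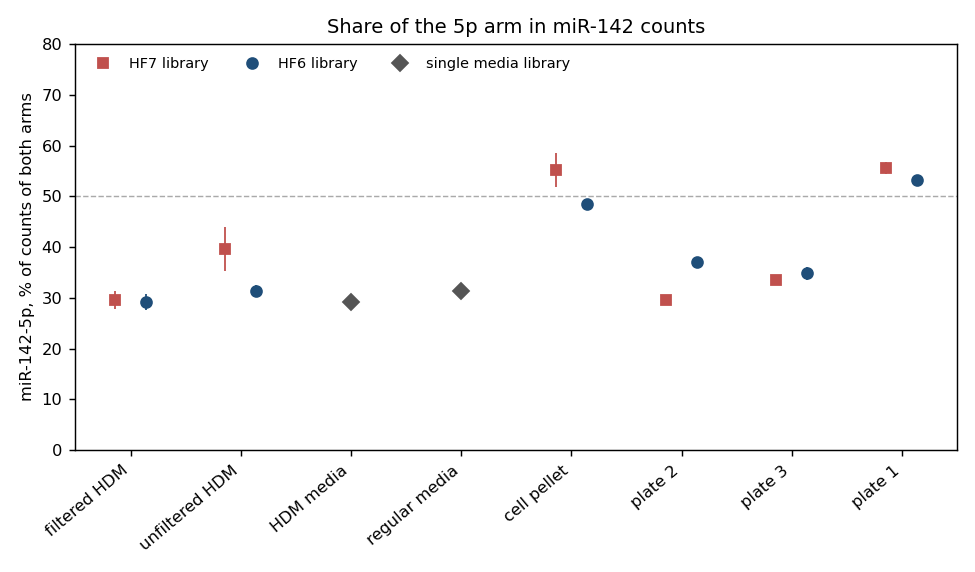
Share of the 5p arm in the miR-142 reads of each library (y axis, percent) with exact intervals; squares are HF7, circles HF6, diamonds media, and the dashed line is at equal arms. Pellets and plate 1 lie between 48.5% and 55.6%, and all other libraries between 29.1% and 39.6%.

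**Figure D4:**
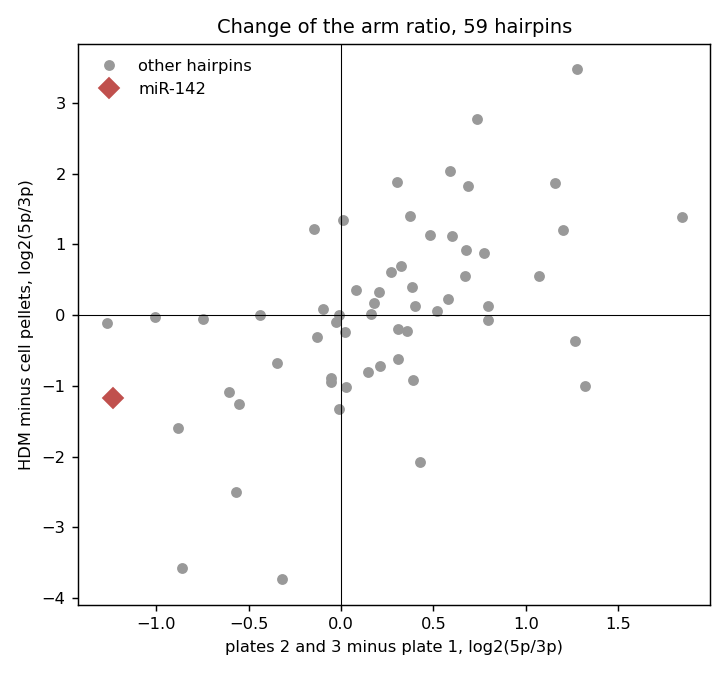
Difference of the mean log2 ratio of 5p to 3p counts for 59 hairpins, plates 2 and 3 minus plate 1 (x axis) and HDM minus cell pellets (y axis). miR-142 (diamond) is low on both axes, at -1.23 and -1.18, among hairpins that spread from well below to well above 0.

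Other leukocyte miRNAs were examined from a list of 7, of which 5 are in the table and 2 passed the low-count filter. miR-223-3p, the most abundant miRNA of neutrophils, had 0 counts in 12 of 14 libraries, 1 count in HF6 filtered HDM and 6 in HF6 plate 2. miR-342-3p, another lymphoid miRNA, had at most 9 counts, and miR-511-5p, known from macrophages and dendritic cells, at most 8. miR-146a-5p and miR-146b-5p, which dampen signalling through IRAK1 and TRAF6, were the abundant ones. Summed CPM over the list was between 309 and 316 in filtered HDM, 462 and 634 in unfiltered HDM, 237 in HDM media, 209 in regular media, 4279 and 5578 in pellets, 583 and 3077 on HF6 plates and 572 and 2365 on HF7 plates. miR-146a-5p made up most of the sum in the pellets and on the plates, and the highest unfiltered HDM sum lay above the lowest plate sums.

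Among these, miR-146a-5p was lower in unfiltered HDM than in pellets at a log2 fold of -4.32 ± 1.01 and in filtered HDM at -5.83 ± 1.08 (edgeR adjusted p = 0.0226 and 0.00373). It was lower in HDM than on plates at -2.81 ± 0.64 (adjusted p = 0.0138), higher in pellets than on plates at 2.27 ± 0.65 (adjusted p = 0.0475) and lower on plates 2 and 3 than on plate 1 at -2.50 ± 0.25 (adjusted p = 9.21e-06). miR-146b-5p was called once, lower on plates 2 and 3 than on plate 1 at -1.42 ± 0.21 (adjusted p = 0.000237).

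Markers of erythroid cells, platelets, smooth muscle and stroma were low, while the endothelial pair was not low in the cell libraries. The 4 erythroid and platelet entries in the table, miR-451a, miR-144-3p, miR-144-5p and miR-486-5p, summed to at most 19.1 CPM in any library, and to between 0 and 3.23 CPM in HDM, with miR-486-5p at 1 count in all. miR-451a was lower in unfiltered HDM than in pellets at -3.24 ± 0.82 and in filtered HDM at -2.53 ± 0.66 (edgeR adjusted p = 0.0279 and 0.0186). These folds lie near the floor. For HF7 and HF6 it had 0 and 3 counts in unfiltered HDM, 3 and 5 in filtered HDM and 2 and 32 in pellets. In HF7 unfiltered HDM 3 counts equal 14.6 CPM, above the 6.38 and 8.36 CPM of the HF7 and HF6 pellets. The 3 smooth muscle and stroma entries summed to at most 3.003 CPM, and liver miR-122-5p had 13 counts over the 14 libraries. The endothelial pair miR-126-3p and miR-126-5p summed to between 21.0 and 22.2 CPM in filtered HDM and 29.2 and 34.6 CPM for the unfiltered kind. The pellets held 96.6 and 163 CPM of the pair, HF6 plates 53.8 to 129 and HF7 plates 60.3 to 114. Both were called lower in each HDM kind than in pellets, where 5.61% of all miRNAs were in unfiltered and 9.35% in filtered HDM. Of the 9 epithelial markers 6 were called lower in unfiltered HDM and 5 in filtered HDM than in pellets, beside 5.61% and 9.35% of all miRNAs tested, at median log2 folds of -1.14 and -0.997, against 0.05 and 0.09 over all tested. On plates 2 and 3 against plate 1, 4 of the 9 were called lower, beside 14.8% of all tested, at a median of -0.17, against 0.01 over all tested. The part of any of these in the members' levels was not tested.

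The miRNAs most like each member were ranked by Pearson's r of log2(TMM-normalised CPM + 1) over the 14 libraries among 285 entries with a mean of at least 20 CPM, as a description of libraries that share depth and handling. For miR-150-5p they were miR-1247-5p (r = 0.9504), miR-23b-3p (0.917), miR-148a-5p (0.915), miR-1180-3p (0.903) and miR-181a-2-3p (0.895). For miR-155-5p they were miR-500a-3p (0.932), miR-196a-5p (0.928), miR-502-3p (0.897), miR-1247-5p (0.889) and miR-500a-5p (0.882). For miR-142-5p they were miR-141-3p (0.968), miR-32-5p (0.966), miR-22-3p (0.935), miR-30a-5p (0.912) and miR-96-5p (0.898), and miR-141-3p belongs to the epithelial miR-200 family. For miR-142-3p they were miR-15a-5p (0.864), miR-18b-5p (0.819), miR-29b-3p (0.813), miR-140-5p (0.799) and miR-33a-5p (0.789). No name is shared between the miR-142 lists or between either of them and the other lists. Between members, r was 0.846 for miR-150-5p with miR-155-5p, -0.814 for miR-155-5p with miR-142-5p, -0.783 for miR-150-5p with miR-142-5p and 0.522 for the miR-142 arms. miR-142-3p had r of -0.291 with miR-150-5p and -0.139 with miR-155-5p.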

How the data were processed

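The authors deposited 1 table of expected counts of reads per mature miRNA, not normalized; 14 of the 15 labelled samples were analysed here. Per the labels' protocols, RNA came from miRNeasy extraction and the libraries from a NEXTflex Small RNA-Seq kit. The submitters' processing notes name cutadapt 2.10, Bowtie 1.3.1, FastQC and GRCh38, and the counting rule and filters are not given in the sources used here. The deposited expected counts hold fractions for some entries, but for none of the 4 members, and were rounded to whole numbers.

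The 12 replicated libraries were fitted in edgeR 4.0.16 (quasi-likelihood, TMM, filterByExpr by group, which left 535 miRNAs), with 1 coefficient per group. Plate number replaced HF number for plates 2 and 3 over plate 1. Adjusted p-values run over all 535. The low-count filter was passed by miR-150-5p through 4 HDM and 2 plate libraries. On simulated counts with 4-fold changes, 64.0% of changed miRNAs were recovered for unfiltered HDM over pellets and 97.4% for plates 2 and 3 over plate 1. All simulated libraries shared 1 base profile and 1 common spread. These shares therefore do not cover smaller changes or miRNAs with a wider spread. Replicates were no copies of each other (chi-square per degree of freedom 11.1 to 393 over 9 pairs). Alternatives used DESeq2 1.42.0 and limma 3.58.1. Named miRNAs are the members, their partner arms, the marker lists and the 5 entries most like each member. The members, lists and tests were chosen with earlier results of these data known. Same-numbered HF6 and HF7 plates deviated together (r from 0.518 to 0.770 over 3 pairs), and the replicate block paired them by plate number. Plates of different number were not compared in this way. Because plate 1 stood apart, these r do not show that plates 2 and 3 pair by number.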

Additional observations from a re-analysis of the deposited data

Results flagged for a closer look

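miR-150-5p moved in opposite directions on filtration for the 2 HF numbers. The log2 difference of TMM-normalised CPM (pseudocount 1), filtered minus unfiltered HDM, was -0.29 for HF7 and 0.38 for HF6, a difference of -0.664 between them, which was not tested. The HF7 unfiltered value rests on 15 counts, and the counting intervals by library total overlapped within each HF number. For HF7 they were 37.6 to 58.8 CPM in filtered and 40.8 to 120 CPM in unfiltered HDM. For HF6 they were 65.0 to 87.0 and 47.3 to 67.4 CPM. miR-155-5p also had opposite signs on a smaller scale, at -0.02 for HF7 and 0.06 for HF6. The difference of -0.0739 was also not tested, with 64 counts in HF7 unfiltered HDM. Its counting intervals overlapped within each HF number too.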

How the results depend on the processing

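Of the alternative values of the members' log2 folds, 383 kept direction and side of the threshold, 32 gained a call, 15 lost one and 21 changed sign, all 21 on folds that were not called. miR-150-5p stayed called over pellets and plates in each setting tried, and its sizes are limited by the 4 counts in pellets. The cause of the changes below was not tested. Leaving out 1 library gave 1 member called for unfiltered HDM over pellets, in place of 2, 1 to 3 for filtered HDM over pellets and 1 to 4 for HDM over plates, in place of 3 each, and 1 to 2 for plates 2 and 3 over plate 1, in place of 1. Calls over all miRNAs then ran from 7 to 48 in place of 59, 11 to 92 in place of 97, 16 to 68 in place of 50, 12 to 121 in place of 44 for pellets over plates, and 60 to 129 in place of 140. In other settings they reached 173, 212, 164, 219 and 216, and for filtered over unfiltered HDM 14 in place of 0. For pellets over plates they also fell as low as 0, in place of 44.

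For pellets over plates 2 members in place of 0 were called without the plate 1 libraries (187 miRNAs in all) and against plates 2 and 3 only (219 in all, in place of 44). For filtered over unfiltered HDM 1 was called with only the 4 libraries compared, as were 14 miRNAs in all. For plates 2 and 3 over plate 1 there were 2 with DESeq2, RLE size factors, library totals or a minimum of 50 counts, where 126, 157, 168 and 137 miRNAs were called in all, and 3 with limma-voom or only the libraries compared, where 216 and 210 were, in place of 140.

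Sign changes were on the log2 scale. miR-142-3p in unfiltered HDM over pellets was 0.38 with library totals and -0.42 to 0.19 with 1 library left out. In pellets over plates it was 0.30 against plate 1 only and -0.48 to 0.0072 with 1 left out, and miR-155-5p was 0.37 against plate 1 only. In filtered over unfiltered HDM miR-155-5p was -0.024 with DESeq2, -0.020 with RLE factors, -0.14 with library totals, -0.051 with no filter, -0.12 with at least 50 counts and -0.057 to 0.16 with 1 library left out. There miR-150-5p was -0.042 with library totals, -0.049 with at least 50 counts and -0.18 to 0.37 with 1 left out. In HF7 over HF6 plates the leave-one-out ranges were -0.26 to 0.52 for miR-155-5p and -1.50 to 0.21 for miR-150-5p, and over plate 1 miR-150-5p ran from -0.0024 to 0.72. TMM over the 14 libraries put HDM media at 79.7, 191.7, 998 and 2418 CPM for miR-150-5p, miR-155-5p, miR-142-5p and miR-142-3p, and regular media at 1815 CPM for miR-142-3p.

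Library totals moved the median log2 fold of all miRNAs to 0.66 in unfiltered and 0.59 in filtered HDM over pellets, with 68 called higher and 12 lower in unfiltered HDM and 94 higher and 37 lower in filtered HDM, in place of 29 and 30, and 47 and 50. For HDM over plates the split was 41 and 25 in place of 19 and 31, for pellets over plates 15 and 65 in place of 23 and 21 with a median of -0.45, and for plates 2 and 3 over plate 1 102 and 66 in place of 61 and 79 with a median of 0.21.

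Pellet and HDM libraries of the same HF number showed little shared deviation (r -0.0069 to 0.108 over the 3 pairs of groups). With 2 libraries a group, this cannot decide whether they share a culture or collection. The replicate block used HF number for pellets and HDM and plate number on plates. With it, members called were 3 for unfiltered and 4 for filtered HDM over pellets and 4 for HDM over plates, and 173, 206 and 153 miRNAs in all. It gave 163 for pellets over plates and 3 for filtered over unfiltered HDM, and no member call changed in these, in HF7 over HF6 plates or in plates 2 and 3 over plate 1. miR-150-5p could not be fitted in HF7 over HF6 with only those libraries, where it failed the low-count filter.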
